A study of Homo sapiens with 8 samples.

Results

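The regions described here are the strong ETO2-GLIS2 peaks at 12 h that had no ETO2-GLIS2 peak at 48 h. They were chosen as the peaks on chromosomes 1 to 22 of the ETO2-GLIS2 12 h list that had a −log10 q of at least 10 in the peak caller's output and shared not even 1 bp with a peak of the ETO2-GLIS2 48 h list. The rule found 805 regions among 10926 strong 12 h peaks, which is 7.37% (exact 95% interval 6.88% to 7.87%), and among 28019 peaks of any strength on the same chromosomes. The other 10121 strong 12 h peaks overlapped a 48 h peak and are called kept peaks. The rule used the strength at 12 h and the absence at 48 h, so neither is a finding. A wide 12 h peak is more likely to touch a 48 h peak, so the rule also favours narrow regions. The values of strength and width below are descriptions.

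In ETO2-GLIS2 the corepressor ETO2 (CBFA2T3) is fused to the DNA-binding part of GLIS2, and in AML1-ETO the Runt domain of RUNX1 is fused to ETO (RUNX1T1). The study expressed each protein in U937, a human monoblastic leukaemia cell line, from a retroviral tetracycline-inducible vector, with an HA tag at its N terminus. The ETO2-GLIS2 cells were 1 stable clone (#14) and the AML1-ETO cells another (#4). Both received 5 µg/ml doxycycline, for 12 h in one library and 48 h in the other, and their chromatin was precipitated with anti-HA beads. All groups are thus doxycycline-treated, and there is 1 ChIP library for each protein and time, with an input that has no peak list here. Times and proteins could not be compared over replicates, so no test between them was run. The shares below carry exact 95% Clopper-Pearson intervals and differences of shares carry 95% Newcombe intervals. Both cover counting error over peaks only, and peaks of one library are not replicates.

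GLIS2 is a zinc finger protein of the GLI and GLIS family, which binds G-rich DNA. Runt proteins bind TGTGGT or TGCGGT. ETO family proteins oligomerise, act as corepressors and bind E proteins, the partners of tissue-specific factors at E-boxes. In monocytic cells, enhancers far from start sites are commonly occupied by the ETS factor PU.1, by C/EBP factors, by Runt factors and by AP-1, and each of these recognises a short sequence of its own.

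The 805 regions lay mostly away from promoters and in most cases also held an AML1-ETO peak. They were narrow, which the overlap rule itself favours. Their summits were richer than the DNA 1 kb away in sequences of the Runt, C/EBP and AP-1 kinds. Some single regions show these sequences in their DNA. The first set shows 6 of the strongest regions by −log10 q, of at least 4-fold and in introns or between genes, that held a Runt sequence together with TTGCNNAA (the C/EBP kind) or GAGGAAGT (an extended ETS sequence) within 100 bp centred on the summit. The set was chosen after the counts of these sequences had been seen, and it does not stand for all regions. In 200 bp around the summit, Runt was found with TTGCNNAA in 66 of the 805 regions and with GAGGAAGT in 28. The windows are those of GRCh37, the assembly of hg19, on the plus strand. Capitals mark matches on either strand to Runt (TGTGGT or TGCGGT), TTGCNNAA, GAGGAAGT, AP-1 (TGACTCA or TGAGTCA) and TGGGGGG, the G-rich core of the GLIS sequence.
CEACAM4 (nearest), chr19:42118969-42119068: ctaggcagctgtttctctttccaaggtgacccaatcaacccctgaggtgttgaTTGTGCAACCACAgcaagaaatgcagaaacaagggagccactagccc
MERTK (intron 13), chr2:112761912-112762011: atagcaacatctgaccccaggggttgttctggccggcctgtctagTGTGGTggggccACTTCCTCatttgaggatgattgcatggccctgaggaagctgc
FOXB1 (nearest), chr15:60268853-60268952: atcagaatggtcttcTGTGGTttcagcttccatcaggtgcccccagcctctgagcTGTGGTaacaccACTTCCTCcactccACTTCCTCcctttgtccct
EPHA2 (nearest), chr1:16449560-16449659: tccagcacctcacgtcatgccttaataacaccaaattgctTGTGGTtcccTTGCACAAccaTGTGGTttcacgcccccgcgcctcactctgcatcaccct
ZSCAN5A (intron 2), chr19:56782130-56782229: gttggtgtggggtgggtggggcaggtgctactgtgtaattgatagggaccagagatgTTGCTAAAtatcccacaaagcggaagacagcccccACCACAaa
GNG4 (intron 3), chr1:235731237-235731336: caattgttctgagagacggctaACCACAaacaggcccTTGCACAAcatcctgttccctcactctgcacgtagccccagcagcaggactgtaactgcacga

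Each of these 6 regions held an AML1-ETO peak at both times, as did 577 of all 805 regions (71.7%). At the region in intron 13 of MERTK, a receptor kinase through which macrophages take up dying cells, the ETO2-GLIS2 fold enrichment over local background was 14.6 at 12 h, and the AML1-ETO fold enrichment was 47.1 at 12 h and 38.9 at 48 h. At the region nearest to EPHA2, an ephrin receptor kinase, the values were 12.9 for ETO2-GLIS2 and 30.2 and 26.3 for AML1-ETO at 12 h and 48 h. At the region nearest to FOXB1, 27607 bp from its start, they were 14.6, 14.4 and 10.6. In all 6 regions ETO2-GLIS2 had no peak at 48 h, and the nearest one lay between 421 bp (EPHA2) and 287101 bp (FOXB1) away.

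The second set shows 3 of the 4 strongest regions by −log10 q with a fold enrichment of at least 4 and no AML1-ETO peak at either time, with the same marking. The other one, nearest to DUSP4, is described by its values only.
KLF9 (nearest), chr9:73109279-73109378: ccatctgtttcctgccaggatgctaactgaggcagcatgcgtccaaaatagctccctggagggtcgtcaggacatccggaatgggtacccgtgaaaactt
SLC25A24 (nearest), chr1:108673570-108673669: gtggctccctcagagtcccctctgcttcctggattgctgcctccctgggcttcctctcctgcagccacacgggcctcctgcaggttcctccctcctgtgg
VASH1-DT (intron 1), chr14:77209508-77209607: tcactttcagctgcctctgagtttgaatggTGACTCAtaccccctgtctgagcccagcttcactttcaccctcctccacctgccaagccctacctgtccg
None of these 3 windows of 100 bp held a Runt sequence, and 1 held an AP-1 sequence. In the 200 bp used for the counts below, the KLF9 region also held GAGGAAGT and the SLC25A24 region TTGCNNAA, and none held Runt. The first set was chosen to hold Runt, so the sets cannot be compared for it. Their ETO2-GLIS2 fold enrichment at 12 h was 20.3 (KLF9), 17.6 (SLC25A24) and 14.2 (VASH1-DT).

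The last set is the one that rank alone gives, the 6 regions with the highest −log10 q that held any of the 14 sequences searched. Here capitals mark GGAA, the core of ETS sites, on either strand.
Chromosome 19, chr19:27732037-27732136: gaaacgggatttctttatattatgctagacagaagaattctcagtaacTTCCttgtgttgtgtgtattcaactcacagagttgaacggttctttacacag
Chromosome 10, rank 2, chr10:42385174-42385273: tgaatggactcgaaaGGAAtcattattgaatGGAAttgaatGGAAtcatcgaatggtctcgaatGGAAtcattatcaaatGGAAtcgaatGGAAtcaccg
Chromosome 10, rank 3, chr10:42387254-42387353: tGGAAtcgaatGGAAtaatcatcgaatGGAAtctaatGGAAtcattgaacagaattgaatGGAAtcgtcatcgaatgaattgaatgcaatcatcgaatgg
Chromosome 2, chr2:92325096-92325195: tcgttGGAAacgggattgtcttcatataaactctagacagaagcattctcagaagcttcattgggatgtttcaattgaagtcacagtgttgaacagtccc
Chromosome 11, chr11:51580497-51580596: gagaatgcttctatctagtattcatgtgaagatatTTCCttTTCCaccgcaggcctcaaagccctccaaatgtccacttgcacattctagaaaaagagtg
Chromosome 10, rank 6, chr10:42391649-42391748: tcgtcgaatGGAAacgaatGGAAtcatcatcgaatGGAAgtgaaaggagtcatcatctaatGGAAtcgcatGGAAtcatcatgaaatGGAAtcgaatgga
In the 3 windows of chromosome 10, GGAA occurred 6, 5 and 6 times within 100 bp. All 6 regions had a fold enrichment of only 1.53 to 2.26. The background could be recovered for 5 of them, all but the one on chromosome 19, and ran from 446.8 to 3218 fragments.

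These weakly enriched regions need to be kept apart from the rest. The peak caller's fold enrichment and p-value together fix the number of fragments piled up at a summit and the local background expected there, and both could be recovered for 804 of the 805 regions. At the chromosome 10 region with the highest −log10 q (165), 4919 fragments stood over a background of 3218. At the STIM1 region, the strongest by −log10 q (72.2) among regions of at least 4-fold, 66 fragments stood over a background of 1.95. A fold enrichment under 4 was found in 21 of the 805 regions (2.61%) and in 15 of the 10121 kept peaks (0.148%). Of those 21 regions, 15 lay within 1 Mb of an assembly gap of at least 50 kb, against 98 of the other 784. The largest cluster of regions within 10 kb of each other was of this kind, with 5 regions on chromosome 10 between 42384972 and 42400691 and fold enrichments of 1.30 to 1.83. The next 2 clusters were 4 regions on chromosome 2 between 92312538 and 92325246 and 3 on chromosome 18 between 108074 and 110437. The part of repeated sequence and of the closeness to gaps in these 21 peaks was not tested.

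The regions were weaker than the kept peaks, which is a description only. The median summit pile-up was 24 fragments over a median background of 1.95 in the regions, with quartiles of 21 and 29, and 40 fragments in the kept peaks, with quartiles of 27 and 70. Median fold enrichment was 7.46 in the regions and 12.2 in the kept peaks. Of strong 12 h peaks with a −log10 q of 10 to 15, 465 of 2458 (18.9%) had no 48 h peak. The share was 9.55% (131 of 1372) from 15 to 20, 7.01% (124 of 1769) from 20 to 30 and 1.60% (85 of 5327) from 30 upwards. Among 12 h peaks under the threshold it was 60.1%. By chromosome the share of strong peaks without a 48 h peak ranged from 4.42% on chromosome 12 to 11.4% on chromosome 5, with intervals of several percentage points.

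**Figure D1:**
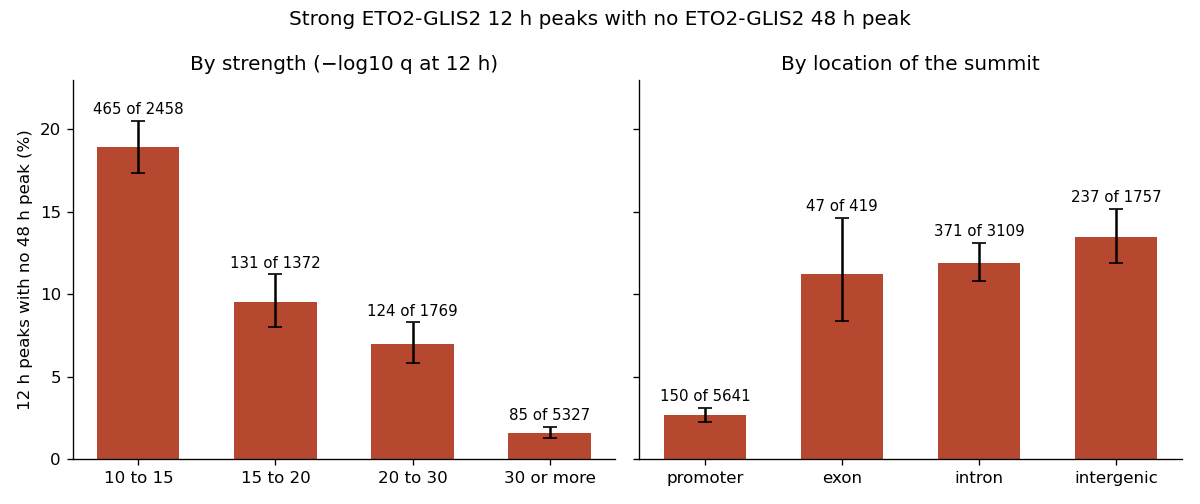
Percent of strong ETO2-GLIS2 12 h peaks (y axis) with no ETO2-GLIS2 48 h peak, by −log10 q at 12 h (left) and by the location of the summit (right). Bars are shares, whiskers exact 95% intervals and the labels give the counts, with 18.9% in the weakest class, 1.60% in the strongest and 2.66% at promoters.

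**Figure D2:**
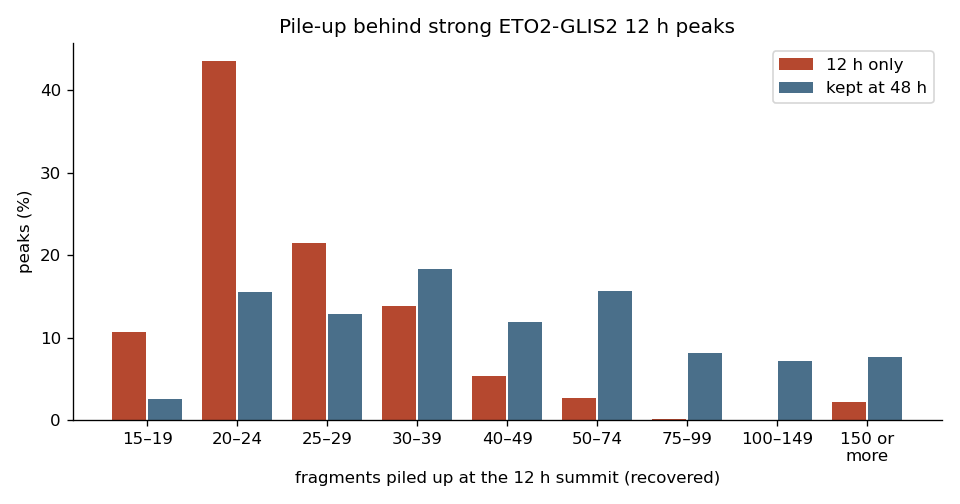
Fragments piled up at the 12 h summit (x axis, unequal classes) in the 804 regions and 10119 kept peaks for which they could be recovered, as a percent of each group (y axis). In the regions 43.5% of summits held 20 to 24 fragments, and 2.24% held 150 or more, which are regions of low fold enrichment over a high background.

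The 48 h library had the lower background of the pair. The background that recurred most often was 1.95 fragments in the 12 h list and 1.32 in the 48 h list, a ratio of 0.677, and the smallest pile-up called at that background was 8 fragments at 12 h and 7 at 48 h. In the kept peaks the highest 48 h summit held a median of 0.848 times the fragments of the 12 h summit, and 5% of kept peaks had a ratio under 0.463. For the 784 regions of at least 4-fold, the 12 h pile-up multiplied by 0.677 had a median of 15.9 fragments. It was at least 7 in all 784, but the threshold of strength fixed this in advance. The lowest 12 h pile-up of any region was 19 fragments, and the regions were chosen for their 12 h values. For a median region, 7 fragments are 29.8% of its 12 h pile-up. The part of the lower background of the 48 h library in the absence of peaks was not tested beyond these values.

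The same rule in the other direction and in the other protein gives the scale of change between lists. Of strong ETO2-GLIS2 48 h peaks, 594 of 10842 (5.48%) had no 12 h peak. Of strong AML1-ETO 12 h peaks, 182 of 18964 (0.960%) had no AML1-ETO 48 h peak, and of strong AML1-ETO 48 h peaks 2093 of 24845 (8.42%) had none at 12 h. The AML1-ETO 48 h list was the longer one, with 104677 peaks against 70063 at 12 h, whereas the ETO2-GLIS2 lists held 29784 and 28019.

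Some absences were near misses of the overlap rule. The nearest ETO2-GLIS2 48 h peak lay a median of 10470 bp from the region, within 1 kb at 128 regions and more than 100 kb away at 108. Closest were the region in intron 8 of TNFRSF1B, a receptor of tumour necrosis factor, with a gap of 1 bp, and those of PIK3AP1 at 24 bp and STX2 at 43 bp. On the other side of that limit, kept peaks at UCK2, ARHGEF10L and C1orf159 overlapped their 48 h peak by 14, 17 and 18 bp. At the threshold of strength, the weakest regions were those nearest to PTPN1 (−log10 q 10.04), SPINK8 (10.08) and CCT3 (10.09), and the 12 h peaks just under it, without a 48 h peak, were those of KCNJ15, PXDNL and TNFRSF8, all at 9.98.

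AML1-ETO peaks were frequent at the regions, but less so than at kept peaks. An AML1-ETO 12 h peak overlapped 608 of the 805 regions (75.5%, 72.4% to 78.5%) and an AML1-ETO 48 h peak overlapped 679 (84.3%, 81.7% to 86.8%). Among all strong 12 h peaks these shares were 93.8% and 97.6%. Both times gave a peak at 577 regions (71.7%), 48 h alone at 102 (12.7%), 12 h alone at 31 (3.85%) and neither at 95 (11.8%), while 1.82% of all strong 12 h peaks had neither. Against the kept peaks the difference was −19.8 percentage points (−22.9 to −16.9) for the AML1-ETO 12 h list and −14.3 (−17.0 to −11.9) for the 48 h list.

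This difference was present at every strength. In the class of −log10 q 10 to 15, 75.1% of the regions and 91.6% of kept peaks held an AML1-ETO 12 h peak. In the class of 30 or more the shares were 71.8% and 97.3%. That class includes regions of low fold. Of the 21 regions with a fold enrichment under 4, 16 had no AML1-ETO peak, and their part in the class was not tested. Over all strengths, with both groups limited to at least 4-fold, the difference was −18.4 percentage points (−21.5 to −15.6) for the AML1-ETO 12 h list. For the 48 h list it was −12.5 (−15.1 to −10.2). At promoters they were 73.3% and 95.9%, and outside promoters 76.0% and 94.6%. Regions were also narrower than kept peaks in each class (medians of 315 to 346 bp against 561 to 1149 bp), and the part of width in the difference was not tested.

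**Figure D3:**
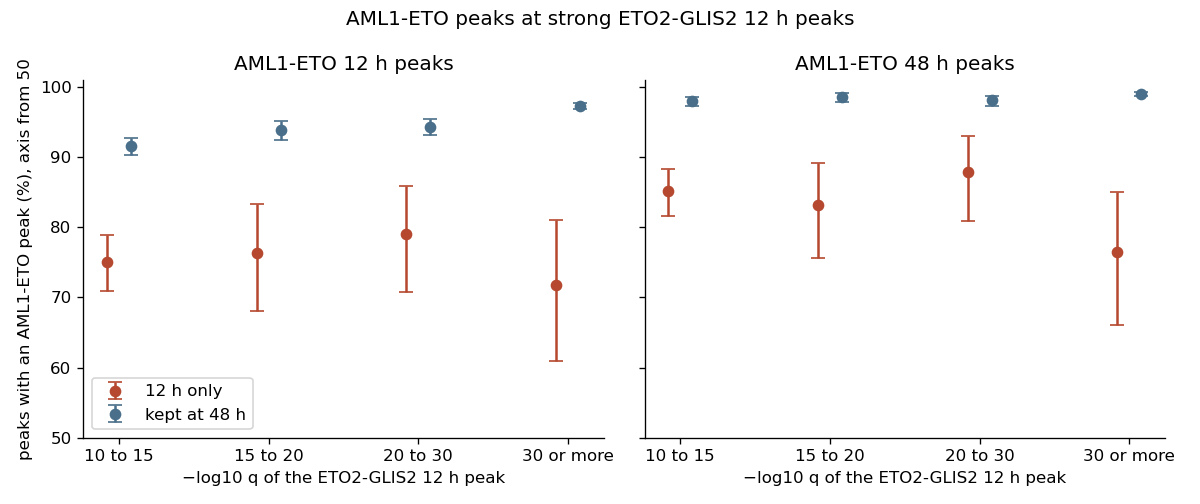
Percent of strong ETO2-GLIS2 12 h peaks that held an AML1-ETO peak at 12 h (left) or 48 h (right), by −log10 q of the ETO2-GLIS2 peak. Points are shares with exact 95% intervals on an axis that starts at 50%, and the 12 h only regions lie below the kept peaks in all 4 classes at both times.

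Where AML1-ETO was present, its summit lay close to that of ETO2-GLIS2, at a median distance of 44 bp at 12 h and 46 bp at 48 h. Its peaks there were wide and ranked high in their own lists. The median width was 1084 bp at 12 h and 1675 bp at 48 h, and the median rank lay at 16.2% and 13.2% from the top of the list. Kept peaks held AML1-ETO peaks of higher rank, at 8.84% and 5.24%. At 149 of the 679 regions with an AML1-ETO 48 h peak, that peak also held an ETO2-GLIS2 48 h peak at another place within it.

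The strongest AML1-ETO 48 h peak over a region was the one near RUNX3, a Runt transcription factor of the myeloid and lymphoid lineages. The region itself had an ETO2-GLIS2 fold enrichment of 7.46 at 12 h, and the AML1-ETO peak had a fold enrichment of 120 at 12 h and 96.1 at 48 h. The ETO2-GLIS2 48 h list had its nearest peak 418 bp away. At a region in intron 1 of BHLHE40-AS1, beside the gene of the transcription factor BHLHE40, the values were 6.64 for ETO2-GLIS2 and 52.0 and 76.3 for AML1-ETO. At a region near NCF1, a subunit of the phagocyte NADPH oxidase, they were 6.78, 108 and 57.5. NCF1 has near-identical pseudogene copies, so the placement of reads there is uncertain. These 3 regions were picked by their AML1-ETO values.

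The 95 regions without AML1-ETO included 16 of the 21 of low fold. Those of at least 4-fold were led by the regions nearest to KLF9 (20.3-fold) and DUSP4 (17.4-fold), then SLC25A24 (17.6-fold), by −log10 q. KLF9 is a zinc finger factor that binds GC boxes, DUSP4 is a phosphatase of MAP kinases and SLC25A24 is a mitochondrial carrier. They lay 79756, 304951 and 69345 bp from the canonical start of the gene named, and the nearest ETO2-GLIS2 48 h peak was 69169, 70944 and 15957 bp away. Of the 95 regions, 36 were intergenic, 38 intronic and 16 at promoters.

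The regions were placed mostly outside promoters. Summits fell within 1 kb of a transcription start site, called promoter here, in 150 of 805 regions (18.6%, 16.0% to 21.5%) and in 54.3% of kept peaks, a difference of −35.6 percentage points (−38.3 to −32.6). Introns held 371 regions (46.1% against 27.1% of kept peaks), intergenic DNA 237 (29.4% against 15.02%) and exons 47 (5.84% against 3.68%). In the class of −log10 q 10 to 15 the promoter shares were 21.9% and 57.0%, and in the class of 30 or more 16.5% and 53.0%. Looked at from the side of all strong 12 h peaks, 2.66% of those at promoters, 11.2% of those in exons, 11.9% in introns and 13.5% in intergenic DNA had no 48 h peak.

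The median distance from the summit to the nearest start site was 5839 bp in the regions and 641 bp in kept peaks. More than 50 kb from any start site lay 50 regions (6.21%) and 150 kept peaks (1.48%). The DNA at the summit held a median of 52.5% G and C in the regions and 63.0% in kept peaks, and outside promoters 51.5% and 57.0%. In the flanks 1 kb away it was 46.8% and 51.0%. Regions were narrow, with a median width of 330 bp against 854 bp, and in the class of −log10 q 10 to 15 the widths were 335 and 561 bp. The rule favours narrow peaks, so these widths are descriptions. Of the 805 regions, 35 (4.35%) had another region within 10 kb, among them the low-fold clusters named above. No such share was computed for kept peaks.

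Of the 14 sequences searched, Runt was the one with the largest excess at the summits of the regions. It was found within 200 bp centred on the summit in 35.9% of the regions and in 17.0% of the flanking windows, an excess of 18.9 percentage points (15.1 to 22.7). TTGCNNAA was found in 20.9% and 9.44%, an excess of 11.4 (8.36 to 14.7). AP-1 gave 10.3% and 3.48%. Of the E-box forms, which E proteins bind, CAGCTG gave 18.4% and 10.7%, whereas CACCTG was less frequent at the summits than in the flanks, with 15.2% and 19.9%, a difference of −4.72 (−7.79 to −1.48). GATA and CCAAT were less frequent at the summits too, with 10.2% against 16.1% and 18.9% against 22.9%. The ETS sequence CCGGAAGT was found in only 3 of the 805 regions (0.373%, against 0.124% of flanks, difference 0.248, −0.161 to 0.971) and in 1.91% of kept peaks. Its core GGAA was found in 91.4% of summits and 82.2% of flanks. GAGGAAGT, added after the counts of 6-mers had been seen, gave 7.70% and 0.932%. Among all 6-mers the largest excess over the flanks was that of AGGAAG, with 45.6% of summits and 20.2% of flanks. It was followed by ACTTCC at 31.8% and 11.7%, and by CAGGAA at 37.6% and 17.8%, and these 3 hold the ETS core on one strand. Next came the Runt 6-mer, at 32.0% and 14.8%, and then CCCCAG, at 35.9% and 18.9%.

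The sequences known for GLIS2 itself were rare. TGGGGGG was found in 5.59% of the regions and 3.48% of their flanks, an excess of 2.11 percentage points (0.396 to 4.08). In kept peaks it was found in 11.3%, with an excess over their flanks of 6.21 (5.54 to 6.91). The full GLIS consensus, TGGGGGG with 1 more G or C before it and T and A or C after it, was present in 2 of the 805 regions and in 81 kept peaks (0.800%).

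Compared with kept peaks as a whole, the regions held more Runt (35.9% against 27.1%), TTGCNNAA (20.9% against 10.7%) and AP-1 (10.3% against 6.99%), and far fewer GC boxes, GGGCGG (9.19% against 37.9%). Since 54.3% of kept peaks lay at promoters, the comparison was repeated outside promoters, with 655 regions and 4630 kept peaks. There the differences were 0.88 percentage points for Runt (37.3% against 36.4%, −3.00 to 4.89) and −0.763 for AP-1 (10.4% against 11.1%, −3.07 to 1.95), so that neither exceeded the counting error. GAGGAAGT was found in 8.85% and 8.23%, a difference of 0.626 (−1.49 to 3.16).

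The TTGCNNAA share remained higher outside promoters, at 21.98% in the regions and 16.2% in kept peaks, a difference of 5.74 percentage points (2.55 to 9.23). With both groups limited to a −log10 q of 10 to 20 it was 21.6% against 15.7%, a difference of 5.90 (1.90 to 10.2). C/EBP factors, to which such sequences belong, are regulators of granulocyte and monocyte differentiation. In the flanks TTGCNNAA was found in 9.85% for the regions and 7.97% for kept peaks. It was not the only sequence with a higher share outside promoters. CCAAT was found in 18.8% against 15.2% (difference 3.62, 0.617 to 6.94) and GATA in 10.2% against 7.84% (2.39, 0.144 to 5.05). Both were less frequent at the summits of these regions than in their flanks. Lower outside promoters were GGGCGG (6.11% against 14.8%), TGGGGGG (5.80% against 9.33%, difference −3.53, −5.30 to −1.32) and CAGCTG (18.6% against 23.8%, difference −5.20, −8.26 to −1.81). At −log10 q 10 to 20 the CAGCTG and TGGGGGG differences outside promoters were −2.07 and −1.77 points, with intervals that reached past 0. Those of CCAAT (2.64) and GATA (2.74) also had intervals that reached past 0. The GC content at these summits differed too, as given above, and its part in these differences was not tested.

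**Figure D4:**
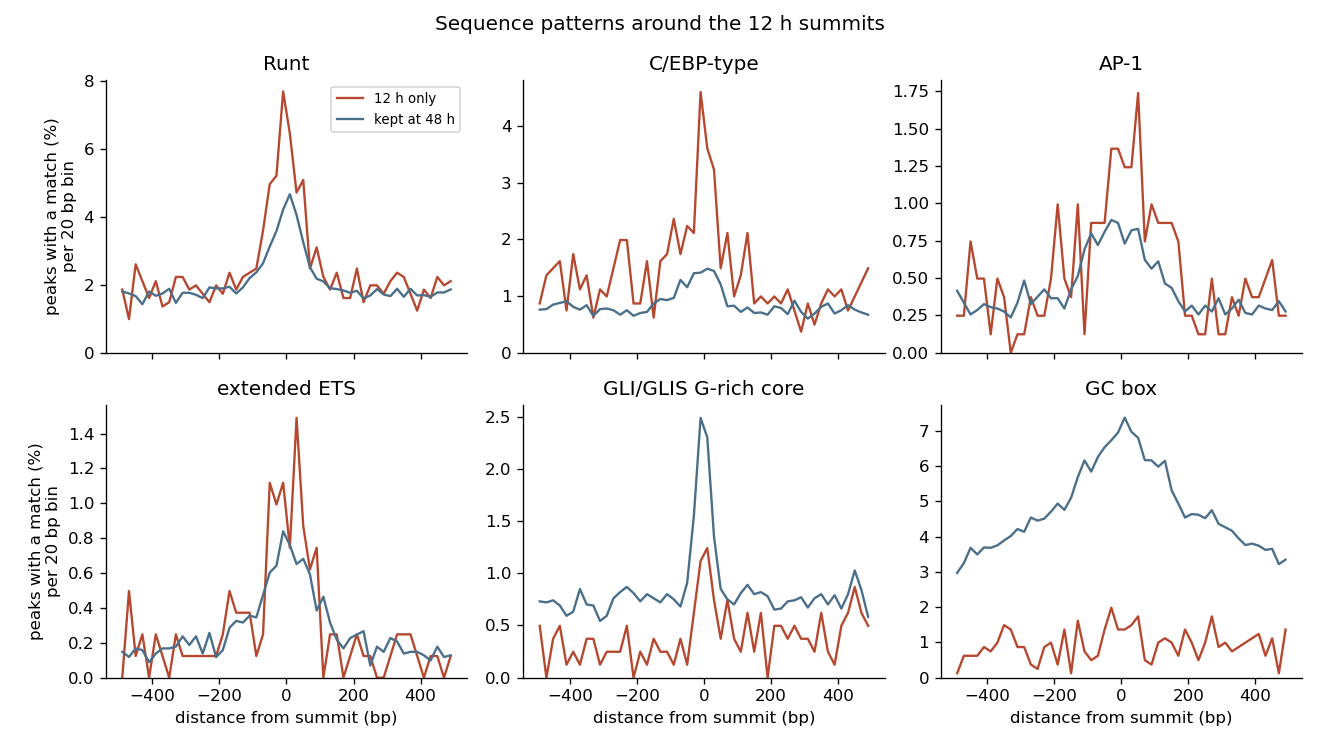
Percent of peaks with a match starting in each 20 bp bin (y axis) against the distance of the bin from the 12 h summit (x axis, bp), for 6 sequences in the 805 regions and the 10121 kept peaks. Scales differ between panels. Runt, C/EBP-type, AP-1 and extended ETS matches gather within 100 bp of the summit in both groups, and the GC box is raised over the whole span only in the kept peaks, which are mostly promoters.

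Runt and TTGCNNAA occurred together in 66 regions (8.20%), against 3.74% of kept peaks, and outside promoters in 8.70% against 6.18% (difference 2.53, 0.466 to 5.02). Runt and GAGGAAGT occurred together in 28 regions (3.48%, against 1.57%), all 28 of them outside promoters. The share of a pair depends on the share of each sequence alone, and no excess over that was computed. None of Runt, GAGGAAGT, TTGCNNAA and AP-1 was found in 338 regions (42.0%) and in 58.6% of kept peaks, and outside promoters in 39.7% and 42.9% (difference −3.20, −7.14 to 0.854).

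The Runt share was higher in regions with an AML1-ETO peak than in those without one. The latter include 16 of the 21 regions of low fold, whose part in this difference was not tested. Among the 710 regions with an AML1-ETO peak at either time, 38.03% held a Runt sequence (34.4% to 41.7%), an excess over the flanks of 20.6 percentage points (16.6 to 24.7). Among the 95 without one, 19 held it (12.5% to 29.5%), and the excess of 5.79 points had an interval from −3.07 to 15.9. TTGCNNAA was found in 22.3% of the former (19.2% to 25.5%) and 10.5% of the latter (5.16% to 18.5%). AP-1 was found in 10.4% and 9.47%, with an excess over the flanks in both (6.83 and 6.84 points).

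By −log10 q among the regions of at least 4-fold, the strongest lay in intron 1 of STIM1, the calcium sensor of the endoplasmic reticulum, on chromosome 11 between 3915564 and 3915855. Its ETO2-GLIS2 fold enrichment was 22.7 at 12 h, and its AML1-ETO fold enrichment was 8.47 at 12 h and 14.3 at 48 h. The nearest ETO2-GLIS2 48 h peak began 205 bp away. The next was in intron 3 of PLCB1, a phospholipase C of G protein signalling, on chromosome 20 between 8456617 and 8456944, with 21.0-fold for ETO2-GLIS2, 7.29-fold and 5.02-fold for AML1-ETO, and 170012 bp to the nearest 48 h peak. After it came a region at SIL1, a nucleotide exchange factor of the endoplasmic reticulum, in an intron of a transcript other than the canonical one, with 21.0-fold for ETO2-GLIS2, no AML1-ETO 12 h peak and 3.51-fold for AML1-ETO at 48 h. The nearest ETO2-GLIS2 48 h peak lay 27099 bp from the SIL1 region. These 3 regions differed in the distance to an ETO2-GLIS2 48 h peak and in whether AML1-ETO had a peak at both times.

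At promoters the strongest region of at least 4-fold was that of FAM157C on chromosome 16, 620 bp from a start site, with 19.1-fold for ETO2-GLIS2 and 2.48-fold and 8.89-fold for AML1-ETO. Next was a region in intron 13 of LARP4B, 474 bp from the start of another transcript and 110301 bp from the canonical start, with 19.3-fold for ETO2-GLIS2 and 21.0-fold and 6.52-fold for AML1-ETO. After it came one in intron 6 of MKNK1, a kinase that phosphorylates the translation factor eIF4E, with 16.5-fold for ETO2-GLIS2 and 4.95-fold and 7.82-fold for AML1-ETO. By −log10 q alone the first 2 promoter regions were those of low fold on chromosome 18, whose nearest protein-coding gene is USP14.

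In exons the strongest were a region at HECW2 on chromosome 2, which lies in intron 21 of the canonical transcript and in an exon of another, one in exon 3 of LINC01135 on chromosome 1, and one at NAA15 on chromosome 4. At HECW2 the ETO2-GLIS2 fold enrichment was 13.8 at 12 h, and in the AML1-ETO lists it was 57.5 at 12 h and 56.2 at 48 h. The LINC01135 region, at 16.3-fold, lay 115085 bp from JUN, which encodes an AP-1 subunit, and AML1-ETO gave 7.29-fold and 6.32-fold there. At NAA15, a subunit of the N-terminal acetyltransferase, ETO2-GLIS2 gave 15.6-fold and AML1-ETO 15.03-fold and 13.4-fold.

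Between genes, another strong region was the one nearest to DAPK1. At DAPK1, a kinase of cell death pathways, the region lay 17958 bp from the start, with 19.0-fold for ETO2-GLIS2 and 20.2-fold and 30.6-fold for AML1-ETO. Other strong regions with AML1-ETO at both times were in intron 1 of NECTIN1, an adhesion molecule (18.6-fold), in intron 9 of ERBB4, a receptor kinase (18.6-fold), and in intron 1 of TWIST2, a bHLH transcription factor (17.6-fold). At GAB1, a docking protein of receptor kinases, the intron 1 region had 20.01-fold for ETO2-GLIS2 and an AML1-ETO peak at 48 h only, of 4.52-fold.

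Genes of the myeloid and GLIS pathways were counted as having a region if it lay between 20 kb upstream of the gene and its end. Of all 19229 protein-coding genes, 643 (3.34%) had one and 7646 (39.8%) had a strong 12 h peak of any kind. Among the transcription factors of myeloid cells it was 1 of 31 (3.23%, 26 had a strong peak) and among the GLI, GLIS, Hedgehog and BMP genes 1 of 28 (3.57%, 12 had a strong peak), both close to the share of all genes, and among the ETO family, corepressors and E proteins 0 of 18 found (13 had a strong peak). Of the cell cycle and apoptosis genes 2 of 22 had a region (20 had a strong peak), of the monocyte and granule protein genes 3 of 21 (14.3%, 11 had a strong peak) and of the megakaryocyte and platelet genes 4 of 21 (19.0%, 10 had a strong peak). These counts are small and gene lengths differ between lists, so they are given as descriptions.

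The myeloid factor was RUNX1, the Runt factor from which AML1-ETO takes its DNA-binding domain. Its region lay in an intron of a transcript other than the canonical one, with 7.42-fold for ETO2-GLIS2 at 12 h and a 5.53-fold AML1-ETO peak at 48 h only, and the gene held 12 other strong 12 h peaks, all kept. The region counted for IHH, a Hedgehog ligand, lay 15489 bp upstream of the gene in coding exon 8 of the neighbouring gene NHEJ1, at 6.78-fold and without AML1-ETO.

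Among the monocyte genes the strongest was CSF1R, the receptor of macrophage colony-stimulating factor. The region lay in the untranslated part of exon 21, on chromosome 5 between 149432889 and 149433228, with 14.6-fold for ETO2-GLIS2 at 12 h, no AML1-ETO peak at 12 h and 5.52-fold at 48 h. CX3CR1, the fractalkine receptor, had a region 6820 bp upstream at 7.39-fold with AML1-ETO at both times (3.48-fold and 2.25-fold). S100A9, a calcium-binding protein of myeloid cells, had one 2151 bp upstream at 6.07-fold with AML1-ETO at 12 h only (3.67-fold). The 3 genes thus differed in the times at which AML1-ETO had a called peak, in 1 library per time. The weakest of these calls had a −log10 q of 2.42 (CX3CR1 at 48 h) and 3.42 (S100A9 at 12 h). A missing call does not show that AML1-ETO was absent. Among the strong ETO2-GLIS2 12 h peaks counted for these genes, 2 of CSF1R and 1 of S100A9 were kept at 48 h, and 0 of CX3CR1.

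Of the megakaryocyte genes, CD9, a tetraspanin, had its region in intron 2 at 8.82-fold with AML1-ETO at 26.1-fold and 22.8-fold. RAB27B, a GTPase of granule release, had one in intron 1 at 8.39-fold with AML1-ETO at 6.21-fold and 11.8-fold, and this window held both a Runt and a GAGGAAGT sequence. NFE2, a transcription factor of platelet formation, had one near a start site in intron 1 at 7.75-fold with AML1-ETO at 3.48-fold and 5.52-fold. SELP, the adhesion molecule P-selectin, had one in intron 9 at 6.43-fold with AML1-ETO at 12 h only (6.73-fold). Of the cell cycle genes, E2F1 had a region 1155 bp upstream at 9.16-fold, with AML1-ETO at 5.47-fold and 8.03-fold, and RB1, which restrains E2F factors, had one in an intron at 6.25-fold, with AML1-ETO at 6.95-fold and 5.02-fold. The E2F1 window also held both a Runt and a GAGGAAGT sequence. Kept ETO2-GLIS2 peaks were counted as well for RB1 (4), RAB27B (2), NFE2 (1) and E2F1 (1), and 0 for CD9 and SELP.

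No gene had more than 2 regions, and 41 annotated genes, some of them overlapping, had 2. They included JAK1, a kinase of cytokine receptors, NFE2L2, the regulator of the oxidative stress response, EPAS1, a hypoxia-inducible factor, and GRB2, an adaptor of receptor kinases, which were picked for mention with these counts in view. JAK1 held 5 strong 12 h peaks, NFE2L2 4, EPAS1 3 and GRB2 3, so each had at least 1 kept peak. Apart from the low-fold clusters, the largest group of regions within 10 kb held 3, on chromosome 20 between 48964788 and 48967398, in the intergenic DNA between CEBPB, which encodes C/EBPβ, and PTPN1. Their fold enrichments for ETO2-GLIS2 ran from 6.29 to 7.46, and all 3 held AML1-ETO.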

How the data were processed

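ChIP-seq with anti-HA beads was measured in 4 libraries, each with an input, of U937 clones treated with doxycycline. Groups were taken from the sample titles, since the treatment label of the 12 h samples names 48 h. The authors mapped reads to hg19 and called peaks for each ChIP library. The submitters' processing notes name Bowtie2 2.2.9, SAMtools 1.7 and MACS2 2.1.1.20160309. Their settings are not given in the sources used here. The deposited lists give the position and summit of each peak, a fold enrichment (a linear ratio over local background), the significance as −log10 p-value and −log10 q-value, and a score derived from the q-value. These values grow with depth, and their medians and classes were compared only within a list. Fold enrichments given side by side for a single region come from different lists. They are descriptions and do not compare the strength of binding between proteins or times. Only the recovered fragments were set against each other between the 12 h and 48 h lists. The lists come without library read numbers. The study's supplement lists fewer reads for the ETO2-GLIS2 48 h ChIP library than for the 12 h library.

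Peaks shared a region if they overlapped by 1 bp. Fragments and background at a summit were recovered from the authors' fold enrichment, taken as (fragments + 1) / (background + 1), and p-value, taken as a Poisson tail, with a tolerance of 0.01% on the −log10 p-value. This succeeded for 28390 of 28393 peaks at 12 h and 30155 of 30156 at 48 h. Locations used GENCODE release 44 lifted to GRCh37 and all annotated start sites. Sequences were matched on both strands in 200 bp around the summit and in the same length 1 kb upstream and 1 kb downstream. The 14 patterns were TGTGGT or its variant TGCGGT for Runt, the full GLIS consensus and its core TGGGGGG, the GLI sequence TGGGTGGTC, the ETS sequence CCGGAAGT and its core GGAA, AP-1 sites as TGACTCA or else TGAGTCA, TTGCNNAA for C/EBP, the general E-box CANNTG and 2 of its forms, namely CAGCTG and the form CACCTG, sites of GATA factors as TGATAA or else AGATAA, the GC box GGGCGG, and the CCAAT box. GAGGAAGT was added later. Sequences on chromosome 8 were left out of the sets printed.

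The members, the threshold of 10, the gene lists and the patterns were chosen with earlier results of these data known. Named regions are the 12 with the highest −log10 q, the 3 highest in each location and without AML1-ETO, the 3 nearest the threshold on each side, those of the listed genes and the largest cluster. One of the intergenic regions so chosen is not reported here. Most of the highest had a fold under 4, so the highest of at least 4-fold were added after their values had been seen, as were the regions with the highest AML1-ETO values and the genes with 2 regions. Overlaps were checked against bedtools 2.31.1, with 0 of 28393 peaks differing, and pattern matching was tested on simulated data, with 0 of 2800 windows wrong. Python 3.11.15, scipy 1.17.1, pandas 2.3.3 and pysam 0.24.0 were used. No p-value was computed.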

Additional observations from a re-analysis of the deposited data

Results flagged for a closer look

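Strong ETO2-GLIS2 12 h peaks without a 48 h peak also occurred outside chromosomes 1 to 22, in sequences that the comparisons do not use. There were 21, of which 8 lay on X (among 148 strong 12 h peaks there) and 13 on unplaced or unlocalised sequences (among 31). There is no replicate library against which these counts could be set.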

How the results depend on the processing

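No paired analysis was possible because each protein and time has 1 library. No library was left out, for the same reason. The share of soft-masked sequence, and members outside it, were not run, since the genome used carries no such marking. The peak lists hold no read numbers, and depth was read here from the recovered background, 1.95 fragments at 12 h and 1.32 at 48 h. Weak 48 h binding under the caller's threshold cannot be told apart from none.

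Each of 21 values was recomputed under the alternatives that apply to it. Of 172 values, 113 stayed within the interval of the main value (or within 1.5 times a count), 56 moved beyond it and 3 changed sign, and the cause was not tested. Keeping only regions of at least 4-fold, keeping only those with no neighbour within 10 kb, or joining regions within 1 kb moved none of the values. Keeping regions of at least 4-fold, the outside-promoter comparison, GAGGAAGT and the recovered fragments were chosen after seeing the data.

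Without the threshold of strength the rule found 11081 regions, 39.5% of all 12 h peaks. AML1-ETO peaks overlapped 48.8% of them at 12 h and 62.7% at 48 h, 34.1% had neither, 24.0% were at promoters and the median width was 259 bp. Their excess over flanks was 5.09 percentage points for Runt, 3.24 for TTGCNNAA, 2.31 for AP-1, 3.31 for CAGCTG and 1.79 for GAGGAAGT. Differences from kept peaks were −42.5 points (AML1-ETO 12 h), −34.9 (AML1-ETO 48 h), −30.6 (promoter), 2.69 (TTGCNNAA) and −5.43 (CAGCTG), and those of Runt (−1.93) and AP-1 (−0.514) changed sign. At a −log10 q of at least 20 there were 209 regions (2.95%), 12.9% at promoters (−40.1 points from kept peaks), with an excess over flanks of 24.4 points for Runt and 11.5 for CAGCTG and differences from kept peaks of 12.8 (Runt) and −7.46 (TGGGGGG).

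With no 48 h peak within 1 kb the share was 6.196%, of which 15.7% were at promoters (−38.3 points). If a 48 h peak had to cover 50% of the 12 h peak to count, there were 1621 regions (14.8%), with 84.6% and 91.4% overlapping AML1-ETO (−10.9 and −7.31 points), 6.35% neither, 24.98% at promoters (−31.3 points) and a median width of 509 bp. If AML1-ETO peaks had to cover 50% of the region, 68.6% (12 h), 80.1% (48 h) and 15.8% (neither) were obtained. With AML1-ETO summits within 200 bp the shares were 56.6%, 59.5% and 28.2%, and with AML1-ETO peaks of −log10 q 10 or more 55.2%, 68.3% and 27.2%. Promoters of 3 kb held 34.2% of the regions and those of protein-coding start sites 12.7%. In 100 bp windows the excess over flanks was 3.79 points for AP-1 and 4.35 for GAGGAAGT. With both groups limited to −log10 q 10 to 20 the TGGGGGG difference was −3.47. Outside promoters the differences were 0.880 (Runt), 5.74 (TTGCNNAA), −3.53 (TGGGGGG) and −5.20 (CAGCTG), and that of AP-1 changed sign (−0.763).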
